A study of Mus musculus with 2 samples.

Results

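The immunoglobulin heavy chain variable genes of the mouse (Ighv) were read across 2 single-cell RNA libraries of bone marrow. Every gene whose symbol starts with Ighv was a member, which gave 185 genes of 31053 in the deposited gene list, under 183 different symbols because Ighv1-13 and Ighv5-8 each stand on a pair of gene IDs. All 185 IDs were found in GENCODE vM21 (GRCm38), 113 of them as V genes that can code for a protein and 70 as pseudogenes. They lie on chromosome 12 between positions 113572927 and 116010093, a span of 2.44 Mb, and fall into 16 families, named by the first number of the symbol. A UMI (unique molecular identifier, which marks 1 captured RNA molecule) of 76 of them was seen in FMT_young cells and of 75 in FMT_aged cells, while 90 had none in any called cell.

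Both libraries came from aged C57BL/6J mice. The recipients of FMT_young had been given gut microbiota of young donors and those of FMT_aged gut microbiota of aged donors, so all recipients were aged and all had received a transfer. The labels state neither the age in numbers, nor how many animals went into a library, nor any group without a transfer. Flow sorting gave whole marrow, cells without lineage markers (Lin-) and those of them with cKit, which were mixed 1:1:4 before Chromium 3' v3 libraries were made, so shares of mature cells are set in part by that mix. Since each group is 1 library, nothing could be tested or checked against replicates, and every interval below is an exact 95% interval that covers counting error only. After doublet removal 10793 FMT_young and 10320 FMT_aged cells were kept.

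A B cell builds its heavy chain gene by joining 1 V, 1 D and 1 J segment, and its light chain gene by joining 1 V and 1 J segment of the kappa or lambda locus. The daughters of a B cell inherit the joined genes, and a plasma cell, the end stage that secretes antibody, transcribes them at a very high rate. The V gene read in a cell therefore shows which segment that cell's lineage had joined, and cells of 1 lineage share both their heavy and their light chain V gene.

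The germline sequences of 4 V genes are shown because the results turn on them: Ighv1-19 and Ighv1-26 each led more cells of 1 library than any other V gene, Ighv1-78 was the second gene of FMT_aged, and Ighv11-2 led cells of both. Each line is the last 300 bases of exon 2, the exon that codes for most of the variable domain, 5′ to 3′ on the minus strand of GRCm38, from GENCODE vM21 transcripts. Capitals in Ighv1-19 and Ighv1-26 mark the 12 bases at which these stretches differ from each other. Capitals mark the 43 bases of Ighv1-78 that differ from Ighv1-26, and the 117 bases of Ighv11-2 that differ from Ighv1-19. The stretches lie at chr12:114708648-114708947 (Ighv1-19), chr12:114788372-114788671 (Ighv1-26), chr12:115868773-115869072 (Ighv1-78) and chr12:114048241-114048540 (Ighv11-2).
Ighv1-19: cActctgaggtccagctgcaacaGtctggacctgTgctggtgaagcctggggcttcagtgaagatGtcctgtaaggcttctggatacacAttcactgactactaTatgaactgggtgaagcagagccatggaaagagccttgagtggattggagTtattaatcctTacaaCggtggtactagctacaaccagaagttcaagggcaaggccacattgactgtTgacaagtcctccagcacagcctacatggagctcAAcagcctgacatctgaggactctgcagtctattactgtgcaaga
Ighv1-26: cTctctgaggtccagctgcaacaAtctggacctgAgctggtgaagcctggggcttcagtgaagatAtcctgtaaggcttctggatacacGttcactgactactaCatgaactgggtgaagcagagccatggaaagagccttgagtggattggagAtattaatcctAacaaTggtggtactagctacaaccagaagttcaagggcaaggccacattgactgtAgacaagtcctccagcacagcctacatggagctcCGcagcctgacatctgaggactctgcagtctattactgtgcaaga
Ighv1-78: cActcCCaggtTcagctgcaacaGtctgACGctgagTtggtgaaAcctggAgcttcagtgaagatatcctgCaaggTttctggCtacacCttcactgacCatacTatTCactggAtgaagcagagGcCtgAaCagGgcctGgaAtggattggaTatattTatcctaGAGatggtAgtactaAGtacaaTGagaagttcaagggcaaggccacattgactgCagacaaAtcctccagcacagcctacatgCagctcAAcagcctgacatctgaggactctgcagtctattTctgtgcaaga
Ighv11-2: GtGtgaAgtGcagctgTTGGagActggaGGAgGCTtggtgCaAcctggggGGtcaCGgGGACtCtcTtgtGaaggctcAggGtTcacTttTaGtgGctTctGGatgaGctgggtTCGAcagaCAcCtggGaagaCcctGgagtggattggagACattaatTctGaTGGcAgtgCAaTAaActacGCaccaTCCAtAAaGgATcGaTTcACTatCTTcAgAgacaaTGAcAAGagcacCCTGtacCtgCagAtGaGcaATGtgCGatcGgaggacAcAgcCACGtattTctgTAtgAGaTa
Over the whole exon, Ighv1-19 and Ighv1-26 were identical at 95.1% of aligned positions, differing at 15 of 305 with gaps counted, and Ighv1-26 was the nearest of the 111 V exons compared. Reads of such near copies could be shared between genes at mapping. In the plasma-like cells led by Ighv1-19, 5075 UMIs were given to Ighv1-19 and 1 to Ighv1-26. Cells led by Ighv1-26 held 1286 of its UMIs and 0 of its nearest gene, Ighv1-34, which is 96.4% identical. The nearest genes of Ighv1-53 (Ighv1-72, 96.1%), Ighv1-55 (Ighv1-64, 95.1%), Ighv1-78 (Ighv1-77, 89.8%) and Ighv11-2 (Ighv11-1, 98.7%) likewise held 0 UMIs in the cells those genes led. A cell counted as led by a gene only where that gene had at least 2 times the UMIs of the next. Cells with reads split evenly over near copies could thus not enter these counts, and sharing at mapping was not tested.

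Cell types were rebuilt here from markers, with all immunoglobulin genes kept out of the clustering. The plasma-like class was 1 cluster in which all 11 plasma cell markers of the list that the files hold were raised, led by Jchain (the joining chain of IgM and IgA polymers), Mzb1 and Derl3. Its 1119 FMT_young cells (10.4% of kept cells) had a median of 13805 UMIs, and its 678 FMT_aged cells (6.57%) one of 14400.5. Immunoglobulin genes gave 59.4% and 57.9% of its UMIs. The mature B-like class joined 2 clusters led by Ms4a1, Cd79a and Ebf1, with 10 and 12 of 12 B cell markers raised, and held 325 (3.01%) and 502 (4.86%) cells at medians of 2917 and 3896.5 UMIs. No cluster was named pro-B or pre-B-like, although Vpreb3, a marker of that list, was among the leading genes of the second B-like cluster. With doublets kept, a cluster of 54 cells, 6 from FMT_young and 48 from FMT_aged, took that name, with Vpreb1, Vpreb2 and Igll1 of the surrogate light chain among its leading genes. Among the kept cells, 6 and 34 had 4 or more such markers with that list in the lead, and they held 0 and 5 Ighv UMIs. A further 2 clusters with plasma cell markers were kept out. The first, with Pf4, Chil3 and Fn1 among its leading genes, had only 6 of the 11 plasma cell markers raised. The second had 10 raised, but Fcnb and Vcam1, which mark other cell types, were among its leading genes. The 2 clusters held 482 FMT_young cells, 3.90% and 0.565% of that library, and 16 FMT_aged cells, 0.0775% in each cluster. Barcodes called as cells in both libraries numbered 34, against 19.9 expected if the libraries were independent. Of these, 5 were plasma-like in FMT_young and 0 in FMT_aged. A leading V gene was assigned in 4 of the 5, and 0 had the same one in FMT_aged. Most assigned cells of FMT_aged are plasma-like, so a match had little room to occur, and no conclusion is drawn from it.

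Heavy chain V transcripts were concentrated in plasma-like cells. These held 6843 Ighv UMIs in FMT_young and 3767 in FMT_aged, 411 (402 to 421) and 370 (359 to 382) CPM (counts per 1000000 UMIs of the class). The median plasma-like cell had 4 Ighv UMIs in each library and the highest cell had 87 and 115. Heavy chain constant genes gave 482 and 490 UMIs for each Ighv UMI. The kit reads the 3' end of a transcript, and the V exon lies at the 5' end. Of the plasma-like cells, 92.4% (90.7 to 93.9) had at least 1 Ighv UMI in FMT_young, as did 88.3% (85.7 to 90.7) in FMT_aged. Pseudogenes held 26 of the 10610 Ighv UMIs of the class (0.245%).

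A cell was assigned a leading V gene where its top Ighv gene had at least 3 UMIs and at least 2 times the next. This named a gene in 783 FMT_young plasma-like cells (70.0%, 67.2 to 72.6) and in 401 FMT_aged ones (59.1%, 55.3 to 62.9). The intervals did not overlap. A minimum of 10 UMIs in place of 3 left 17.8% and 15.3%. With each cell thinned to 2000 UMIs the shares were 6.82% and 5.97%, and the share with any Ighv UMI was 51.9% and 42.8%. In the assigned cells, which the rule selects for 1 gene well above the next, the leading gene held 99.0% and 98.5% of all Ighv UMIs. Cells without an assigned gene are not in these 2 shares. Over all plasma-like cells, with or without an assigned gene, a second Ighv gene reached 3 UMIs in 12 FMT_young (1.07%) and 14 FMT_aged cells (2.06%).

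Outside the B lineage the same reads were rare. An Ighv UMI was present in 2.86% of FMT_young and 0.471% of FMT_aged T, NK or innate lymphoid-like cells, at medians of 3365 and 3176 UMIs. Granulocyte progenitor-like cells, at 25910 and 28183 UMIs, showed 7.20% and 2.55%. A leading gene was assigned in 1 and 0 cells of the former class and in 3 and 1 of the latter. Barcodes under 100 UMIs, which hold mostly RNA free of cells, had 71.9 and 27.3 Ighv CPM. In FMT_young Ighv1-19 gave 76.1% of the Ighv UMIs of those barcodes, 88.9% of those in T, NK or innate lymphoid-like cells and 79.7% of those in plasma-like cells. For Ighv1-26 in FMT_aged the same shares were 36.7%, 71.4% (5 of 7 UMIs) and 38.1%.

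**Figure D1:**
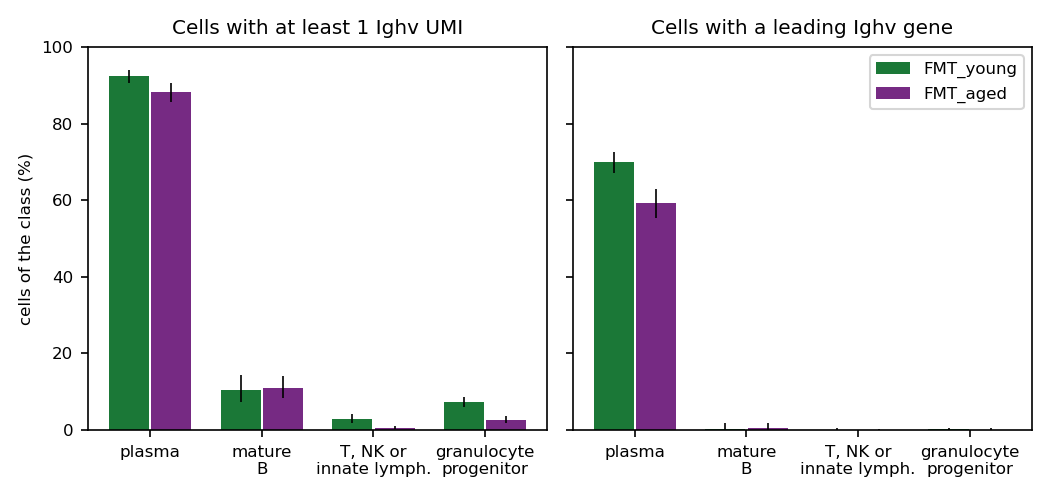
Share of cells, in percent, with at least 1 Ighv UMI (left) and with a leading Ighv gene (right) in 4 cell classes of FMT_young (green) and FMT_aged (purple); bars are shares and lines exact 95% intervals of counting error. Plasma-like cells stand at 92.4% and 88.3% on the left and 70.0% and 59.1% on the right, and no other class shown exceeds 11.0%.

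Plasma-like cells of the 2 libraries were led by different V genes. Ighv1-19 led 648 of 783 assigned cells in FMT_young (82.8%, 79.9 to 85.3) and 0 of 401 in FMT_aged (0 to 0.916%). Ighv1-26 led 207 of 401 in FMT_aged (51.6%, 46.6 to 56.6) and 8 of 783 in FMT_young (1.02%, 0.442 to 2.0). Among cells with at least 10 UMIs of their leading gene, Ighv1-19 led 81.9% in FMT_young and Ighv1-26 led 27.9% in FMT_aged. Drawn at random, 2 assigned cells shared their leading gene with a chance of 68.7% in FMT_young and 27.9% in FMT_aged. Without Ighv1-19 cells in FMT_young and Ighv1-26 cells in FMT_aged, these chances were 8.08% over 135 cells and 5.56% over 194 cells.

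The remaining cells used many genes. In FMT_young, 42 genes led at least 1 cell, and after Ighv1-19 came Ighv1-53 with 31 cells (3.96%) and Ighv1-55 with 18 (2.30%). Ighv1-26 and Ighv11-2 led 8 each, Ighv3-6 and Ighv6-3 led 5 each, and Ighv14-2, Ighv9-3 and Ighv1-72 led 4 each. FMT_aged had 47 leading genes, with Ighv1-78 second at 30 cells (7.48%), Ighv11-2 at 18 (4.49%), Ighv1-55 at 17 (4.24%) and Ighv7-3 at 16 (3.99%). Ighv4-1 led 10 cells, Ighv5-4 led 8, Ighv14-4 led 7, and Ighv10-3 and Ighv1-18 led 6 each. The order in FMT_aged changed with the depth asked for: among cells with at least 10 UMIs of their leading gene, Ighv7-3 led 14.4%, Ighv4-1 9.62%, Ighv11-2 7.69%, Ighv1-78 3.85% and Ighv1-55 0.962%. In FMT_young that minimum left Ighv1-53 at 2.51%, Ighv1-55 at 0.503% and Ighv11-2 at 3.52%. At 3 UMIs the intervals of neighbours in these orders overlapped from the second gene down in both libraries. A total of 27 genes led cells in both libraries, 64.3% of the FMT_young and 57.4% of the FMT_aged leading genes.

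**Figure D2:**
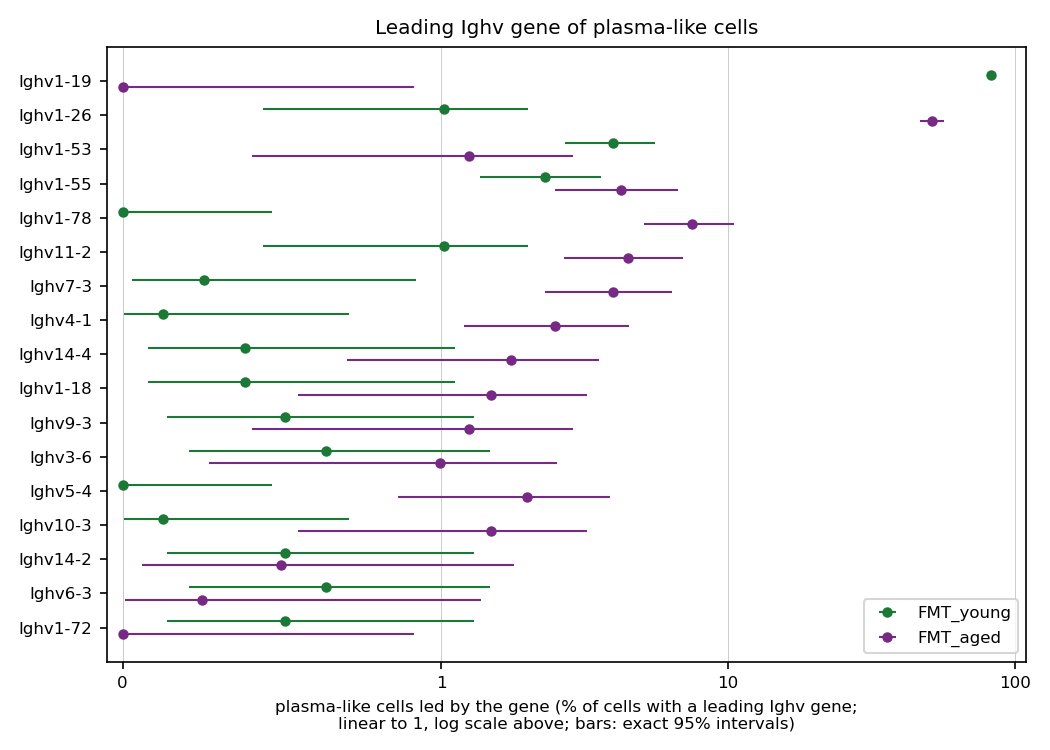
Percent of plasma-like cells with a leading Ighv gene that were led by each of the 17 genes that stood among the first 10 of either library, on an axis that is linear to 1 and logarithmic above; points are shares in FMT_young (green) and FMT_aged (purple) and bars exact 95% intervals of counting error. Ighv1-19 stands at 82.8% against 0 and Ighv1-26 at 1.02% against 51.6%, while genes such as Ighv3-6, Ighv9-3 and Ighv14-2 have overlapping intervals.

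Summed over all plasma-like cells, with or without an assigned gene, most of the V genes with enough UMIs differed by 2-fold or more between the libraries. Of the 28 Ighv genes with at least 30 UMIs over both libraries, 6 were 2-fold or more higher in FMT_young and 16 were 2-fold or more lower, in CPM. Across all 9828 genes tested at that minimum, 2.6% were as much higher and 4.54% as much lower. The median log2 ratio of FMT_young over FMT_aged was -1.20 for the Ighv genes and -0.13 for all genes, and placing the genes with 0 UMIs at any value beyond their neighbours leaves the Ighv median as it is. The kappa V genes (Igkv) had 9 higher and 24 lower of 42. The direction of this split rested on the largest group of cells: without the plasma-like cells led by Igkv1-117, the light chain gene paired with Ighv1-19 below, 14 Ighv genes were higher and 8 lower.

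Ighv1-19 had 5454 UMIs (328 CPM, 319 to 337) in FMT_young plasma-like cells and 0 in FMT_aged. Against a floor of 3 UMIs over the class this was 1111-fold higher, and the lower interval bound of the log2 ratio was 9.82. No UMI of Ighv1-19 was found in FMT_aged barcodes under 100 UMIs either, against 449 in FMT_young. Ighv1-26 had 44 UMIs against 1434 (log2 ratio -5.74, -6.20 to -5.30). Each of these genes was thus low or at 0 in the library led by the other.

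Other genes higher in FMT_young rested on fewer cells. Ighv1-53 had 247 UMIs against 41 (log2 ratio 1.88, 1.40 to 2.39) and Ighv6-3 had 86 against 13 (2.02, 1.17 to 2.98). Without cells led by Igkv1-117 these ratios were 4.09 and 4.30. Ighv1-47 had 77 against 4 (3.56, 2.14 to 5.47), and 76 of the 77 came from 1 cell. Ighv1-77 had 37 UMIs in FMT_young, led 1 cell, and had 0 in FMT_aged. The ratio of summed UMIs does not show how many cells used a gene.

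Lower in FMT_young were Ighv1-78 with 0 UMIs against 239, Ighv5-4 with 0 against 177 and Ighv5-17 with 0 against 77. Against the floor of 3 UMIs these were 130-fold, 96.6-fold and 42.0-fold. The near-side interval bounds of their log2 ratios were -6.72, -6.28 and -5.06. Ighv7-3 had 12 against 352 (log2 ratio -5.59, -6.55 to -4.76), Ighv4-1 had 7 against 207 (-5.60, -6.93 to -4.53) and Ighv10-3 had 4 against 167 (-6.09, -7.99 to -4.71). Without cells led by Igkv1-117 the ratios were -3.31 for Ighv7-3, -3.81 for Ighv10-3 and -3.49 for Ighv1-26. Cells led by Ighv7-3 and Ighv4-1 in FMT_aged were rich in V reads, with medians of 19.5 and 17.5 UMIs of the leading gene, against 5 for Ighv1-26 and 6 for Ighv1-19 in FMT_young. Ighv11-2 (200 against 166 UMIs, -0.44, -0.75 to -0.14) and Ighv1-55 (118 against 120, -0.73, -1.11 to -0.36) were within 2-fold. Both turned higher in FMT_young, at 1.84 and 1.52, when cells led by Igkv1-117 were left out. Ighv3-6 had 62 against 37 UMIs, with an interval that included 0 (0.03, -0.58 to 0.66).

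By family, Ighv1 led 736 of 783 assigned cells in FMT_young (94.0%, 92.1 to 95.6) and 297 of 401 in FMT_aged (74.1%, 69.5 to 78.3). Ighv1 is the J558 family, by far the largest of the locus, with 93 of the 185 genes. Once Ighv1-19 and Ighv1-26 cells were left out of their libraries, it led 88 of 135 cells (65.2%, 56.5 to 73.2) and 90 of 194 (46.4%, 39.2 to 53.7). In that remainder Ighv5 led 4 cells in FMT_young (2.96%, 0.813 to 7.41) and 20 in FMT_aged (10.3%, 6.41 to 15.5). Ighv7 led 2 (1.48%) and 18 (9.28%), Ighv4 led 1 (0.741%) and 10 (5.15%), and Ighv11 led 8 (5.93%) and 18 (9.28%). Ighv14 led 7 and 11 cells, Ighv3 led 6 and 4, Ighv6 led 6 and 2, Ighv9 led 5 in each, Ighv2 led 3 and 6, Ighv10 led 3 and 6, and Ighv13 led 2 and 1. Ighv8 led 0 and 2 cells and Ighv12 led 0 and 1, while Ighv15 and Ighv16 led none. Families other than Ighv1 were each counted on 20 cells or fewer in a library, and cells of 1 lineage are not independent draws of a family.

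The V genes stand in a row upstream of Ighm, the first constant gene, and those nearest to it are known to be joined more often early in life. Split by order into 61 nearest, 62 middle and 62 farthest genes, the remainder in FMT_young took 36 cells from the nearest (26.7%, 19.4 to 35.0), 27 from the middle (20%, 13.6 to 27.7) and 72 from the farthest (53.3%, 44.6 to 62.0). In FMT_aged it took 92 (47.4%, 40.2 to 54.7), 29 (14.9%, 10.2 to 20.8) and 73 (37.6%, 30.8 to 44.9). The nearest genes thus held a larger share in FMT_aged, with intervals that did not overlap. The share of the farthest was larger in FMT_young, with intervals that just overlapped, and cells of 1 lineage count here more than once. Ighv1-19 lies 1286 kb and Ighv1-26 lies 1366 kb from Ighm, as genes 100 and 108 in that order, both in the middle group. Ighv1-78, at 2446 kb, is in the farthest.

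**Figure D3:**
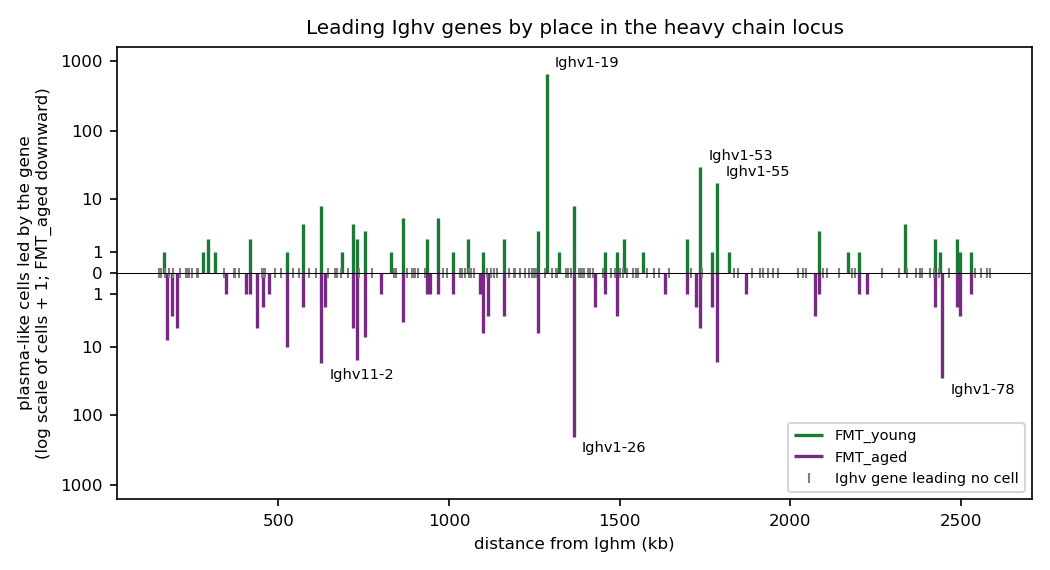
Plasma-like cells led by each Ighv gene (log scale of cells + 1) against the distance of the gene from Ighm in kb, with FMT_young upward in green and FMT_aged downward in purple; grey ticks are genes that led no cell. Ighv1-19 (648 cells) and Ighv1-26 (207 cells) stand close together at 1286 and 1366 kb, each tall on 1 side, while the remaining leading genes are spread along the locus.

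Pairing with the light chain was read from the leading kappa V gene, assigned by the same rule. A leading Igkv gene was found in 1043 FMT_young plasma-like cells (93.2%) and 559 FMT_aged ones (82.4%), and both chains in 751 and 361. Lambda UMIs exceeded kappa UMIs in 17 (1.52%) and 45 (6.64%) cells, which a kappa call does not describe.

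In each library 1 pair made up most of the cells with both calls. Ighv1-19 with Igkv1-117 was found in 639 of 751 FMT_young cells (85.1%, 82.3 to 87.6) and 0 of 361 in FMT_aged (0 to 1.02%). Of 642 Ighv1-19 cells with a kappa call, 639 had Igkv1-117, and of 642 Igkv1-117 cells with a heavy chain call, the same 639 had Ighv1-19. A further 232 cells led by Igkv1-117 had no heavy chain call, and 187 of them held at least 1 UMI of Ighv1-19. Ighv1-26 with Igkv6-15 was found in 198 of 361 FMT_aged cells (54.8%) and in 1 of 751 FMT_young cells (0.133%). With at least 10 UMIs of each leading gene its share in FMT_aged was 33.3%. Of 201 Ighv1-26 cells with a kappa call, 198 had Igkv6-15 (98.5%). Of the 91 FMT_aged cells led by Igkv6-15 with no heavy chain call, 72 held a UMI of Ighv1-26. In FMT_young the 7 Ighv1-26 cells with a kappa call used 5 different Igkv genes, Igkv10-96 in 3 of them.

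Smaller groups of cells also had a most frequent light chain partner. In FMT_young Ighv1-53 was paired with Igkv4-55 in 21 of 26 cells, Ighv1-55 with Igkv3-4 in 10 of 15, and Ighv14-2 with Igkv8-28 in 3 of 4. FMT_aged had Ighv1-78 with Igkv3-2 in 29 of 30 cells, Ighv4-1 with Igkv19-93 in 8 of 10 and Ighv5-4 with Igkv5-48 in 4 of 7. Igkv19-93 was also paired with Ighv1-7, in 3 cells. No pair with Ighv7-3, which led 16 FMT_aged cells, was among the 8 most frequent of that library. Cells with a heavy chain call but no kappa call are in no pair share. Other genes showed no such partner: the 5 FMT_aged cells with Ighv1-53 and a kappa call used 5 different Igkv genes, and the 4 with Ighv9-3 used 4.

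A few pairs were present in both libraries. Ighv11-2 with Igkv14-126 was found in 7 of 7 FMT_young cells and 14 of 15 FMT_aged cells that had Ighv11-2 and a kappa call. This is the VH11 and Vκ9 pair known from B-1a cells, a self-renewing B cell population, where it forms antibodies to phosphatidylcholine. Of the 34 FMT_aged cells led by Igkv14-126, however, 18 had no heavy chain call, and only 2 of those held a UMI of Ighv11-2. In FMT_young 1 of 8 such cells had no heavy chain call, and it held a UMI of Ighv11-2. Ighv1-55 with Igkv12-89 was found in 4 and 13 cells, and Ighv14-4 with Igkv6-20 in 3 of 3 and 7 of 7. Counted over all cells with both calls, FMT_young held 65 different pairs and FMT_aged 81, of which 54 and 64 were seen in 1 cell only. The libraries shared 11 pairs, 16.9% of the FMT_young and 13.6% of the FMT_aged pairs. Without the leading pair of each, 2 cells shared a pair with a chance of 4.76% over 112 cells in FMT_young and 4.91% over 163 cells in FMT_aged.

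**Figure D4:**
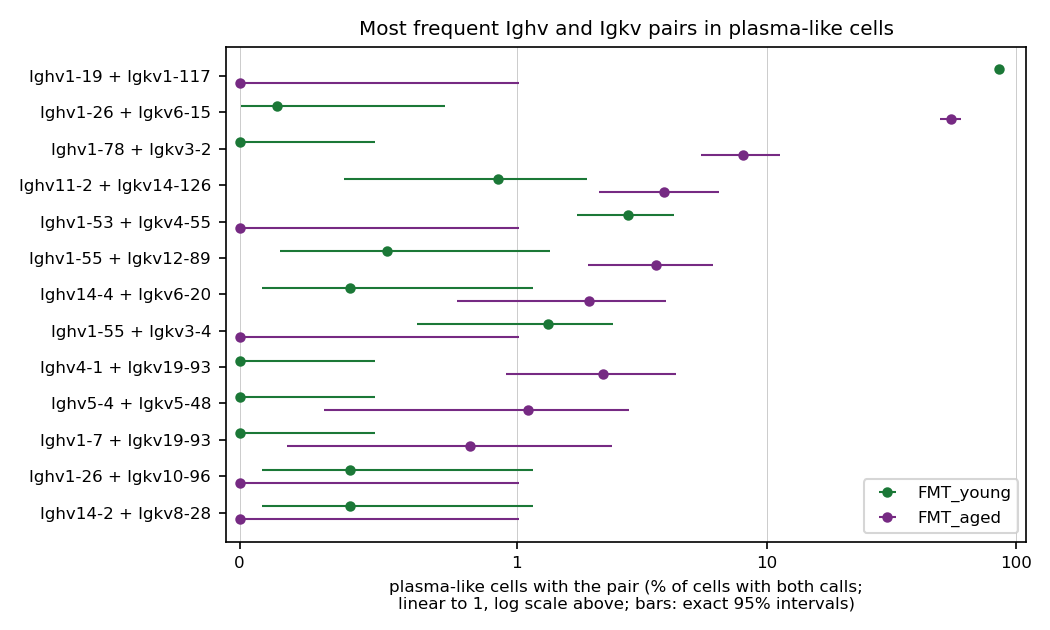
Percent of plasma-like cells with both calls that carried each of the 13 Ighv and Igkv pairs that stood among the first 8 of either library, on an axis that is linear to 1 and logarithmic above; points are shares in FMT_young (green) and FMT_aged (purple) and bars exact 95% intervals of counting error. Ighv1-19 with Igkv1-117 stands at 85.1% against 0, and Ighv1-26 with Igkv6-15 at 0.133% against 54.8%, while Ighv11-2 with Igkv14-126 is present in both.

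The isotype, the constant region to which the V gene is joined in the transcript, was read from the leading heavy chain constant gene of each cell. Ighm led 1070 FMT_young (95.6%) and 639 FMT_aged (94.2%) plasma-like cells, and Igha, the constant gene of the antibody of mucosal surfaces, led 41 (3.66%, 2.64 to 4.94) and 32 (4.72%, 3.25 to 6.60). All 639 cells of the Ighv1-19 and Igkv1-117 pair and all 198 of the Ighv1-26 and Igkv6-15 pair were led by Ighm. Cells led by Igha were spread over V genes in both libraries, with 25 leading genes over 35 cells in FMT_young and 18 over 26 cells in FMT_aged. The chance that 2 such cells shared their V gene was 2.35% and 3.69%, against 75.3% and 32.5% among Ighm cells. The most frequent V gene in Igha cells was Ighv9-3 in FMT_young and Ighv5-6 in FMT_aged, with 4 cells each. Ighg2c led 5 and 2 cells, and 3 of the 4 FMT_young ones with an Ighv call had Ighv1-26. In 3 FMT_aged cells Ighd was in the lead, and all 3 had Ighv10-3.

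The genes that handle the same transcripts were read in the plasma-like class from fixed lists, with the 2-fold limit and backgrounds given above for summed CPM. Of 6 heavy chain constant genes tested, 1 was higher in FMT_young, Ighg2b (968 against 211 UMIs, log2 ratio 1.49), and 2 were lower, Ighd (59 against 1868, -5.70) and Ighg3 (134 against 487, -2.57). Ighg2b led 1 FMT_young and 0 FMT_aged plasma-like cells, Ighd led 0 and 3, and Ighg3 led 0 in each. How many cells these sums rest on was not tested. Of 4 light chain constant genes, Iglc1 (-2.64) and Iglc2 (-1.13) of the lambda locus were lower. Among 12 genes of V(D)J recombination and the surrogate light chain, Vpreb3 was lower (104 against 142 UMIs, -1.16, -1.54 to -0.78). Among 12 of class switching and hypermutation, Pms2, a mismatch repair gene, was lower (51 against 66, -1.08, -1.64 to -0.53). Both intervals crossed the 2-fold limit. With 4.54% of all genes as much lower, 1 gene of 12 is near the background and is not read as a result about either list. Among B cell receptor signalling genes, Blk, a Src family kinase, was lower (95 against 251, -2.11). None of 24 genes of antibody folding and secretion passed 2-fold in either direction. No heavy chain joining gene reached 30 UMIs, so the J segment could not be read.

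Mature B-like cells held few heavy chain V reads. They had 41 Ighv UMIs in FMT_young (33.0 CPM, 23.7 to 44.8) and 90 in FMT_aged (35.7 CPM, 28.7 to 43.9), intervals that overlapped. Free RNA was not subtracted from these values, and T, NK or innate lymphoid-like cells held 11.5 and 1.38 Ighv CPM. The overlap is thus not read as equal use by B-like cells. An Ighv UMI was present in 10.5% (7.35 to 14.3) and 11.0% (8.36 to 14.0) of cells, or 7.41% and 5.61% with cells thinned to 2000 UMIs, which left out 82 and 74 cells. A leading gene was assigned in 1 and 3 cells only, so use was read from UMIs, over 20 and 22 genes. In FMT_young Ighv1-19 had 12 UMIs (29.3%), and Ighv1-53, Ighv1-55, Ighv1-78 and Ighv2-2 had 3 each. In FMT_aged Ighv1-55 had 25, Ighv1-78 had 12, Ighv2-3 had 9, Ighv1-26 had 8 (8.89%) and Ighv3-6 had 7, and Ighv1-19 had 0. A single cell each gave 10 of the 12 Ighv1-78, 6 of the 8 Ighv1-26 and all 7 Ighv3-6 UMIs in FMT_aged. In FMT_young 5 of the 12 Ighv1-19 UMIs came from 1 cell. Such sums do not show how many B-like cells used a gene. Of the 25 UMIs of Ighv1-55, 24 lay in the B cluster with the larger share of FMT_aged cells (127 against 316). Ighv1-19 also gave most Ighv UMIs of the FMT_young cells outside the B lineage, and the part of free RNA in its 12 UMIs was not tested.

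The largest V gene group of each library was then compared with the other assigned plasma-like cells of the same library in genes outside the immunoglobulin loci, in CPM of non-immunoglobulin UMIs. This compares cells of 1 library with each other and is a description. The 648 Ighv1-19 cells and the 135 others had medians of 15444.5 and 14860 UMIs, and the 207 Ighv1-26 cells and the 194 others had 15299 and 16842. Of 5021 genes that reached 30 UMIs, 147 (2.93%) were 2-fold or more higher in Ighv1-19 cells and 54 (1.08%) as much lower. For Ighv1-26 cells these were 33 of 3193 (1.03%) and 28 (0.877%). The genes named next were those with the farthest near-side interval bound where both cell groups together held 100 UMIs or more, 8 in each direction, a rule set after the values had been seen.

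Ighv1-19 cells were high in Timp2, an inhibitor of metalloproteinases, with 116 CPM against 11.8 (log2 ratio 3.29, 2.44 to 4.30) and a UMI in 45.2% of cells against 5.93%. Transcription factor genes of the immediate response, Atf3 (2.70) and Egr3 (2.21), were also higher, with Atf3 present in 14.0% against 4.44% of cells. Wnt10a, a Wnt ligand, stood at 151 against 39.8 CPM (1.93), Ifi27l2a, an interferon-inducible gene, at 627 against 182 (1.79), and D10Wsu102e at 1907 against 638 (1.58). Cd3g, a T cell receptor subunit, was at 57.7 against 8.61 CPM (2.74) and Pmepa1 at 24.6 against 3.23 (2.93). Lower were Ccdc88a (5.24 against 112 CPM, -4.42), the eosinophil granule gene Prg2 (128 against 788, -2.62), Slpi, a secreted protease inhibitor (597 against 3322, -2.48), and Chst1, a sulfotransferase gene (40.8 against 231, -2.51). Prg2 had a UMI in 39.5% against 85.9% of cells and Slpi in 46.1% against 86.7%, and the part of RNA from granulocytes in these values was not tested. Dnm3 (-2.73), Laptm5 (-2.09), Ptprcap (-2.07) and Ly6k (-1.96) were lower too. Ly6k rested on few cells, with a UMI in 6.17% of Ighv1-19 cells and 10.4% of the others. A single cell held 15.8% of its UMIs in the former and 23.7% in the latter.

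Ighv1-26 cells in FMT_aged were high in Spon1, which codes for a secreted matrix protein (193 against 34.2 CPM, 2.50, 2.05 to 2.97), with a UMI in 67.1% of cells against 14.9%. Irf8, a transcription factor gene of B and myeloid cells, stood at 368 against 86.8 CPM (2.08). Cd2 (2.55), Lag3 (1.50), Wls (1.58), Dnm3 (1.49) and Fcmr, the IgM receptor gene (1.50), were higher, and Ly6k was at 496 against 183 CPM (1.44), with a UMI in 73.4% against 16.5% of cells. Lower was Ly6d, at 321 against 2996 CPM (-3.22, -3.37 to -3.07). Zcwpw1 (31.2 against 491 CPM, -3.98), Atp1b1 (-3.73), Ly6c2 (-2.81), Epcam (-2.79), Itgb7, an integrin subunit of gut homing (-2.44), and Fkbp11 (-2.29) were lower too. Isg15 was lower at -4.27, with 57.1% of the 7 UMIs in Ighv1-26 cells and 32.9% of the 158 in the others from 1 cell each. A restriction to cells led by Ighm, chosen after seeing the data, kept 644 of 648 Ighv1-19 cells and 99 of 135 others in FMT_young. In FMT_aged it kept 206 of 207 Ighv1-26 cells and 163 of 194 others. All 16 genes named in each library kept their direction and stayed past 2-fold. They had been named for their ratios in mostly these same cells, so this is not a separate check, and the part of isotype was not tested.

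**Figure D5:**
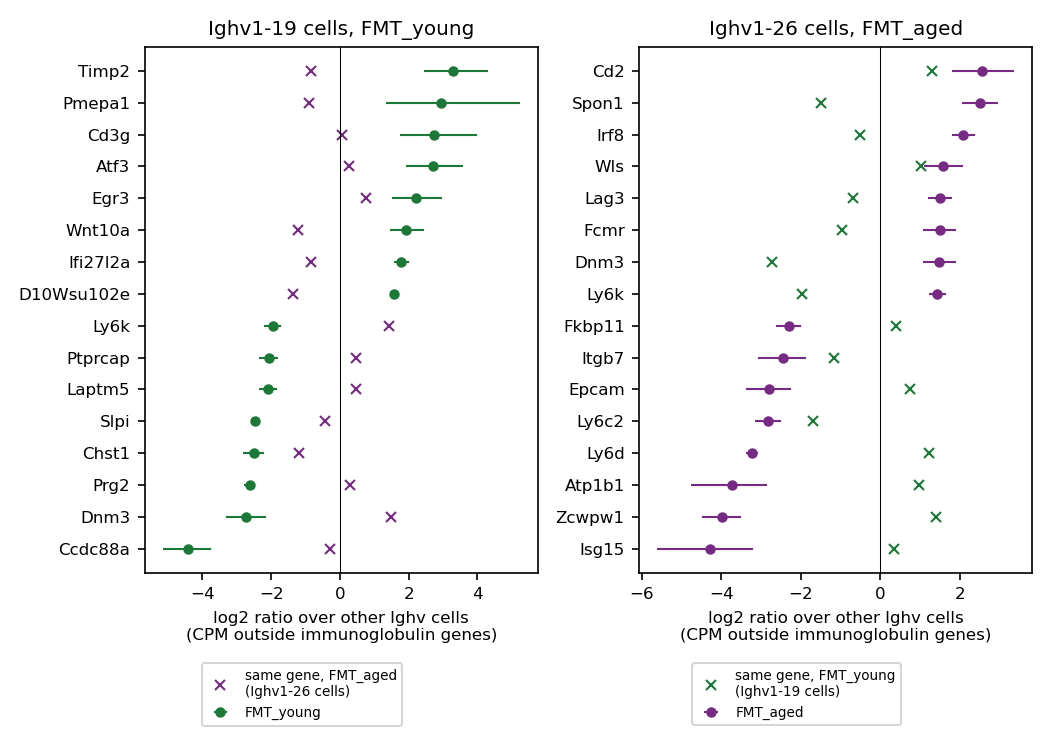
Log2 ratio of CPM outside immunoglobulin genes in Ighv1-19 cells over other Ighv-assigned plasma-like cells of FMT_young (left) and in Ighv1-26 cells over the others of FMT_aged (right), for the 16 genes named in each; points with bars are ratios with exact 95% intervals of counting error and crosses give the same gene's ratio in the other library's own contrast. Timp2 (3.29) and Ccdc88a (-4.42) stand at the ends on the left, and Dnm3 and Ly6k lie on opposite sides of 0 in the 2 contrasts.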

How the data were processed

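The deposited matrices hold raw UMI counts per gene and barcode; the authors made them with Cell Ranger 3.1.0 per the file headers, and the genome build is mm10 per the submitters' processing notes. The deposited gene and barcode lists, of unit other, hold names only, for all 6794880 barcodes of the kit. FMT_young held 214982156 UMIs and FMT_aged 207642851. Barcodes with at least 1000 UMIs, 500 genes and at most 10% mitochondrial UMIs were called as cells (11932 and 11351), and 1139 and 1031 with the highest doublet scores were removed. Cells were clustered in Python 3.11.15 (scikit-learn 1.9.0, leidenalg 0.10.2) on 2000 variable genes outside the immunoglobulin loci, with 40 principal components, 20 neighbours and resolution 1. A cluster entered the plasma-like or mature B-like class with at least 75% of its markers raised and no leading gene that marks a cell type outside the B lineage, a limit set after the clusters had been seen. Shares have exact Clopper-Pearson, CPM exact Poisson and ratios exact conditional binomial intervals at 95%. A zero count was given a floor of 3 UMIs. The leading gene rule and the coverage of the ratio intervals were tested on simulated data. Cell calling, doublet removal and clustering were not. Sequences were aligned with Biopython 1.88.

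Members, gene lists and alternatives were chosen with earlier results of these data known. Named were the 10 Ighv genes leading most plasma-like cells in each library, 5 in mature B-like cells (ties by summed UMIs), the 5 in each direction by near-side interval bound, the 8 most frequent pairs of each library, and 2 members of each list in each direction. Alternatives changed the leading gene rule, free RNA, doublets, clustering, cell filters and scaling. The list of B cell receptor signalling genes is not reported here in full.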

Additional observations from a re-analysis of the deposited data

Results flagged for a closer look

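A leading Ighv gene was also found in cells outside the classes compared. In FMT_young, 10.8% of the 482 cells of the 2 left-out clusters had one, 52 cells, of which 32 had Ighv1-19. These were 6 of 421 cells in the cluster led by Pf4 and 46 of 61 in the one led by Fcnb, and in FMT_aged 0 of 8 and 5 of 8. Among cells removed for their doublet score, 34.1% of 1139 in FMT_young and 17.2% of 1031 in FMT_aged had one, led by Ighv1-19 (296 cells) and Ighv1-26 (92 cells). These cells enter no comparison, and the libraries' shares of them were not compared.

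In the comparison of V gene groups 16 genes were named in each library, with Dnm3 and Ly6k in both lists. Of these named genes, 18 had intervals on opposite sides of 0 in the 2 libraries. They had been named for their far ratios in 1 library or the other. The share of all genes with opposite intervals was not computed, so the count is not read as a result. The difference itself was not tested, and the groups differ in V gene as well as in library. Lower in Ighv1-19 cells of FMT_young and higher in Ighv1-26 cells of FMT_aged, as log2 ratios, were Dnm3 (-2.73 and 1.49), Ly6k (-1.96 and 1.44), Spon1 (-1.50 and 2.50), Fcmr (-0.97 and 1.50), Lag3 (-0.69 and 1.50), Irf8 (-0.52 and 2.08), Laptm5 (-2.09 and 0.46), Ptprcap (-2.07 and 0.48) and Prg2 (-2.62 and 0.28). Higher in Ighv1-19 cells and lower in Ighv1-26 cells were Timp2 (3.29 and -0.83), Wnt10a (1.93 and -1.22), Ifi27l2a (1.79 and -0.85), D10Wsu102e (1.58 and -1.35), Zcwpw1 (1.42 and -3.98), Ly6d (1.24 and -3.22), Atp1b1 (0.98 and -3.73), Epcam (0.75 and -2.79) and Fkbp11 (0.39 and -2.29). The FMT_young ratio of Ly6k rested on few cells, with a UMI in 6.17% of Ighv1-19 cells and 10.4% of the others.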

How the results depend on the processing

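With 1 library in each group no alternative can show the spread between animals, and leaving out a replicate was not possible. No paired analysis was possible because each group had 1 library and no result came from a test. The depth of V reads limits the assignment: the share of plasma-like cells with a leading gene (70.0% in FMT_young, 59.1% in FMT_aged) was 80.4% and 72.7% at a minimum of 2 UMIs, 17.8% and 15.3% at 10 UMIs, 59.5% and 47.9% after free RNA was subtracted, and 6.82% and 5.97% with cells thinned to 2000 UMIs. It was 55.1% in FMT_aged with doublets kept, and in FMT_young 52.2% with the 2 left-out clusters added (chosen after seeing the data, as was leaving out barcodes called in both libraries). At 10 UMIs Ighv1-26 led 27.9% of assigned FMT_aged cells and its pair with Igkv6-15 made up 33.3%, while the Ighv1-19 and Igkv1-117 pair made up 87.8% in FMT_young. Without cells led by Igkv1-117, which takes the main group away by construction, 57.6% of FMT_young cells were assigned, Ighv1-19 led 6.38% and its pair 0, the log2 ratio of Ighv1-26 was -3.49, and 14 Ighv genes were 2-fold higher and 8 lower. Ighv11-2 and Ighv1-55 then turned to 1.84 and 1.52. With no minimum of summed UMIs 25 genes were higher and 44 lower. Of the values for the 2 leading genes, their pairs, the shares and the counts, 91 stayed within their interval or within 1.5 times the count and the 21 above moved; for the other genes and pairs tracked, 206 stayed, 24 moved and the 2 above turned direction.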
